A study of Oryza sativa Japonica Group with 8 samples.

Results

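The YABBY genes encode a small plant-specific family of transcription factors, each with a zinc finger near one end and a YABBY domain, a helix-loop-helix related to the high mobility group box, near the other. In most flowering plants they are active in the primordia of leaves and floral organs and help to set leaf outline and the difference between the upper and lower leaf side. Grasses depart from this in part: the rice gene DL (DROOPING LEAF) is known for building the midrib that keeps the leaf upright and for specifying the carpel. The 7 genes described here are YAB1 to YAB6 and DL, taken by identifier from a table of 55801 rice genes. All 7 had a record of the same symbol, chromosome and similar span in the RefSeq table of rice genes. Published numbering of rice YABBY genes differs between papers, and the numbers used here are those of the OsYABBY series.

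The libraries were made from leaf RNA of Nipponbare, a Japonica rice cultivar, whose seedlings were raised from sterilized seed on half-strength MS, a mineral salt medium. The carbon dot group (CD) had 0.56 mg/ml carbon dots, carbon nanoparticles of a few nanometres, in the medium, and the control group (CK) had the medium alone. Each group had 2 libraries, and nothing in the labels ties a replicate to its own plants or culture, so the p-values rest on the spread between these libraries, which may be technical. The seedlings are labelled as 2 weeks old while the protocol gives 3 weeks of growth, and 4 further samples of the series, for bisulfite sequencing, were not analysed here. The comparison asks whether growth with carbon dots went with another level of these leaf development genes.

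The gene models were described first, since length enters every comparison of level between genes. They came from the authors' count table, whose genome build is not given in the sources used here. YAB1 (LOC_Os07g06620) lies on chromosome 7 from 3221592 to 3229297, YAB2 (LOC_Os03g44710) on chromosome 3 from 25197057 to 25206961, and YAB6 (LOC_Os12g42610) on chromosome 12 from 26477633 to 26487388, all on the plus strand. These 3 belong to the clade named after Arabidopsis YAB2, and each model had 5 introns. Their spans were 7706, 9905 and 9756 bp, above the upper quartile of 4105 bp over all genes in the table, and introns took 78.0%, 87.2% and 83.1% of them. YAB3 (LOC_Os10g36420, chromosome 10 from 19471068 to 19475406), YAB4 (LOC_Os02g42950, chromosome 2 from 25839311 to 25842729) and YAB5 (LOC_Os04g45330, chromosome 4 from 26797650 to 26800253) lie on the minus strand. They belong to the FILAMENTOUS FLOWER clade, had 6 introns each and spanned 4339, 3419 and 2604 bp. DL (LOC_Os03g11600), of the CRABS CLAW clade, lies on chromosome 3 from 6041245 to 6048687 on the plus strand, with 6 introns in 7443 bp, 4062 bp from the floral gene MADS1. No other gene of the table overlapped any of the 7, so shared exons took no reads from them.

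**Figure D1:**
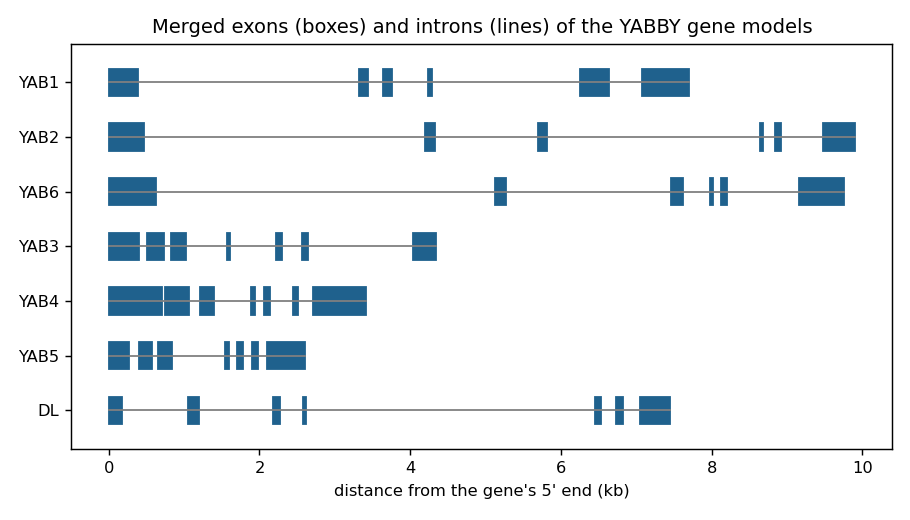
Merged exons (boxes) and introns (lines) of the 7 YABBY gene models in the authors' count table, drawn in kb from the 5' end of each gene. YAB1, YAB2 and YAB6 have 5 introns and the longest spans together with DL, while YAB3, YAB4 and YAB5 have 6 introns in 2604 to 4339 bp.

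Levels between genes were compared in the deposited TPM (counts per gene length, scaled to the same total in each library). The family split into 3 abundant genes and 4 genes at a few TPM or less. YAB6 was at 44.8 and 66.4 TPM in the CD libraries (replicate 1 first, here and below) and at 51.1 and 41.4 TPM in the CK libraries. YAB2, the rice counterpart of the sorghum seed shattering gene Sh1, was at 50.1 and 56.4 TPM in the CD libraries and 39.2 and 57.5 TPM in the CK libraries. Neither gene was first throughout: YAB6 led in CD replicate 2 and CK replicate 1, and YAB2 in the other two. YAB1, known from rice for feedback regulation of gibberellin synthesis, was at 23.6 and 35.4 TPM in the CD libraries and 24.8 and 34.4 TPM in the CK libraries.

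DL followed at 4.90 and 6.60 TPM in the CD libraries and 5.49 and 5.67 TPM in the CK libraries. YAB5, active in the spikelet in rice, was at 4.76 and 1.19 TPM in the CD libraries and 3.21 and 2.15 TPM in the CK libraries. YAB3, a leaf development gene, was at 1.43 and 1.18 TPM against 1.34 and 1.65 TPM. YAB4, known from the vascular tissue of rice and for acting with the DELLA protein of gibberellin signalling, was lowest at 0.714 and 0.0706 TPM against 0.627 and 0.749 TPM. From YAB2 and YAB6 down, the order YAB1, DL, YAB5, YAB3, YAB4 was the same in each of the 4 libraries. Ranges over the 4 libraries overlapped between YAB6 and YAB2 and between YAB5 and YAB3, and did not overlap between the other neighbours in that order. The remaining YABBY gene of rice with a record, YAB7 (LOC_Os07g38410), had 3 and 0 counts in the CD libraries, against 7 and 0 counts in the CK libraries, too few to be tested. Another gene of the table overlapped exons of YAB7, so its counts may lack shared reads.

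YAB1, YAB2 and YAB6 together held 90.9% and 94.6% of the summed TPM of the 7 genes with carbon dots and 91.5% and 92.9% in the control. The sum itself was 130.3 and 167 TPM in the CD libraries and 126 and 144 TPM in the CK libraries, and the groups overlapped. YAB3, YAB4 and YAB5 together held 5.30% of it in CD replicate 1 but 1.46% in CD replicate 2, with 4.11% and 3.17% in the CK replicates. The share of these low genes was thus highest in one carbon dot library and lowest in the other.

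**Figure D2:**
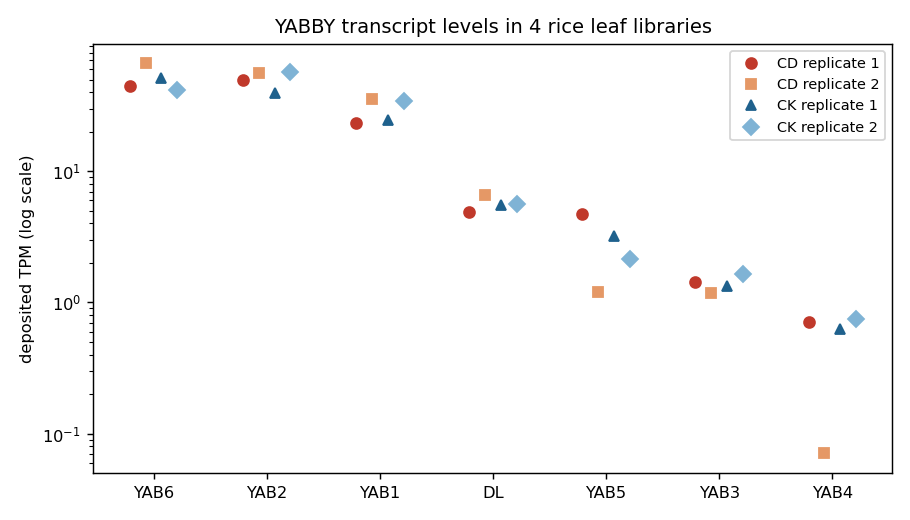
Deposited TPM (log scale) of the 7 YABBY genes in each of the 4 leaf libraries, ordered by their mean. YAB6, YAB2 and YAB1 lie between 23.6 and 66.4 TPM in every library, and YAB4 in CD replicate 2 stands far below the rest at 0.0706 TPM.

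The groups were then compared on the counts. Differences are log2 fold changes, CD minus CK, from edgeR's quasi-likelihood test over 26271 genes, and CPM is the count scaled by the TMM library size. All 7 genes passed the filter on low counts. None passed the test: edgeR called 0 of 7 at an adjusted p of 0.05, as it called 0% of all genes tested, and DESeq2 called 0 of 7 against 1.91% of all genes. At an unadjusted p under 0.05 the count was 0 of 7 by edgeR, against 8.7% of all genes. The log2 fold change was below 0 for 4 genes and above 0 for 3 (49% of all genes were below 0), with a median of -0.08 against 0.007 over all genes. These directions are not firm, because only YAB3 and YAB4 kept theirs whichever library was left out.

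Among the abundant genes, YAB2 was at 33.1 and 38.3 CPM in the CD libraries, against 28.5 and 41.9 CPM in the CK libraries. The control libraries enclosed both carbon dot libraries. Its log2 fold change was 0.02 ± 0.23 (SE, adjusted p = 0.993 by edgeR), with a 95% interval from -0.57 to 0.61, that is, from 1.48-fold lower to 1.53-fold higher. YAB6 was at 38.5 and 58.4 CPM in the CD libraries, against 48.2 and 39.1 CPM in the CK libraries, so that the carbon dot libraries enclosed both control libraries. It had 0.15 ± 0.25 (adjusted p = 0.942 by edgeR), with an interval from -0.49 to 0.79, or from 1.41-fold lower to 1.73-fold higher. YAB1 was at 20.8 and 32.1 CPM in the CD libraries, against 24.1 and 33.5 CPM in the CK libraries. Its groups overlapped too, and its log2 fold change was -0.12 ± 0.28 (adjusted p = 0.962 by edgeR), with an interval from -0.85 to 0.60. For these genes replicates of one group differed more than the groups did: CD replicate 1 lay 0.62 (log2) below CD replicate 2 for YAB1 and 0.60 below it for YAB6.

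DL, the midrib gene, had 206 and 181 counts in the CD libraries, against 250 and 194 counts in the CK libraries, or 2.61 and 3.60 CPM against 3.22 and 3.32 CPM. The carbon dot libraries enclosed both control libraries. Its log2 fold change was -0.08 ± 0.29 (adjusted p = 0.979 by edgeR), with an interval from -0.81 to 0.66, or from 1.75-fold lower to 1.58-fold higher. The sign turned to 0.025 with total count scaling and to 0.026 and 0.028 with TPM, which move the median gene of the table up by 0.104, and by 0.0889 and 0.109. Its CD replicates lay 0.46 apart and its CK replicates 0.05 apart (log2 CPM).

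The genes of the FILAMENTOUS FLOWER clade were less even between replicates. YAB3 had 78 and 42 counts in the CD libraries, against 79 and 73 counts in the CK libraries, or 0.989 and 0.836 CPM against 1.02 and 1.25 CPM. It was the only one of the 7 whose groups did not overlap, with both carbon dot libraries below both control libraries, as were 20.7% of all genes tested (38.4% in either direction). No YABBY gene had both carbon dot libraries above both control libraries, against 17.8% of all genes. Its log2 fold change was -0.31 ± 0.37 (adjusted p = 0.911 by edgeR), with an interval from -1.25 to 0.63, and counting error alone gave overlapping intervals for CD replicate 1 (0.782 to 1.23 CPM) and CK replicate 1 (0.805 to 1.27 CPM).

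YAB4 had 62 and 4 counts in the CD libraries, against 59 and 53 counts in the CK libraries. CD replicate 1, at 0.786 CPM, lay between the control libraries at 0.759 and 0.908 CPM, and CD replicate 2 stood alone at 0.0796 CPM. The exact Poisson interval of that value, 0.0217 to 0.204 CPM, ended below the interval of every other library, the lowest of which began at 0.578 CPM. Such intervals cover counting error only. The CD replicates differed 9.87-fold, where 2.32% of all genes tested were at least 4-fold higher in CD replicate 1 than in CD replicate 2. Between the groups the log2 fold change was -0.89 ± 0.94 (adjusted p = 0.894 by edgeR), with an interval from -3.30 to 1.51. It was -3.35 without CD replicate 1 (unadjusted p = 0.00747, adjusted p = 0.317 by edgeR) and -0.08 without CD replicate 2, so 1 library decided this value.

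YAB5 had 263 and 43 counts in the CD libraries, against 192 and 97 counts in the CK libraries, or 3.33 and 0.856 CPM against 2.47 and 1.66 CPM. The carbon dot libraries held both the highest and the lowest value, 3.90-fold apart, and their Poisson intervals (2.94 to 3.76 and 0.619 to 1.15 CPM) did not meet. The log2 fold change was 0.03 ± 0.67 (adjusted p = 0.997 by edgeR), with an interval from -1.69 to 1.75. Leaving out CD replicate 1 gave -1.27, and leaving out CD replicate 2 gave 0.68. For YAB4 and YAB5 these libraries therefore do not settle a direction, and the intervals reach from 9.85-fold lower to 2.85-fold higher for YAB4 and from 3.22-fold lower to 3.36-fold higher for YAB5.

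**Figure D3:**
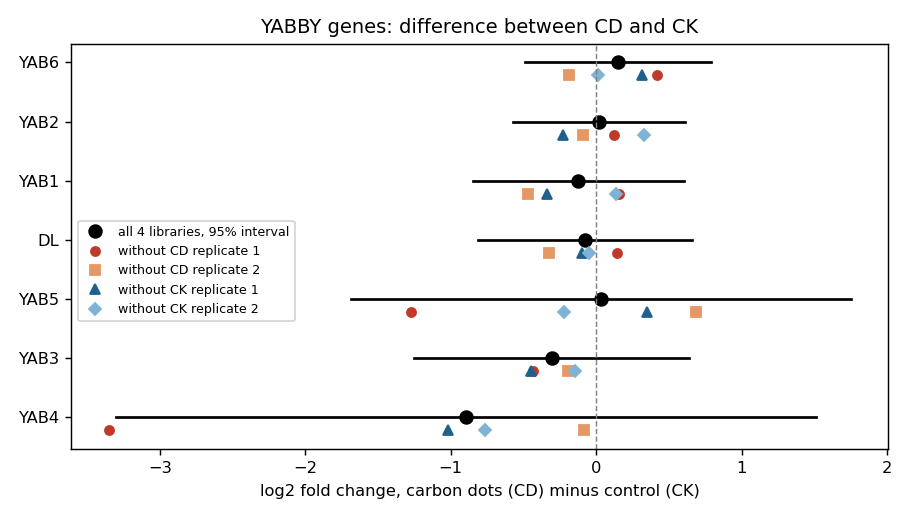
Log2 fold change (CD minus CK) of each YABBY gene by edgeR, with its 95% interval (black), and the same value with each library left out in turn (coloured). Every interval includes 0, and the values for YAB4 and YAB5 move most when CD replicate 1 or CD replicate 2 is left out.

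The library profiles of the clades differed in one respect, which was noticed after the values were seen and carries no test. CD replicate 2 was the lowest of the 4 libraries for YAB3, YAB4 and YAB5, and it was not the lowest for YAB1, YAB2, YAB6 or DL. For YAB3 this lay within counting error, since its Poisson interval (0.602 to 1.13 CPM) overlapped that of every other library. YAB3, YAB4 and YAB5 were also the members with the lowest mean CPM, so clade and level cannot be told apart here. Over all genes tested, CD replicate 2 was lowest for 25.4%. Relative to each gene's mean over the 4 libraries (log2 CPM), CD replicate 2 was at -0.27 for YAB3, -2.21 for YAB4 and -1.09 for YAB5, and at 0.24, 0.12, 0.36 and 0.18 for YAB1, YAB2, YAB6 and DL. Likeness of profiles was measured as the root mean square difference of these centred values over the 4 libraries. The closest pair was YAB1 and DL at 0.16, followed by YAB6 and DL at 0.17 and YAB1 and YAB2 at 0.17. YAB4 was farthest from the others, at 0.78 from YAB5 and at 1.12 or more from the remaining genes. Among the 28 tested genes with a matched symbol in the lists of leaf polarity, gibberellin, plastochron and growth-regulating genes, tissue markers left out, the nearest to YAB6, the gene with the highest mean CPM, were SLL1 (0.11), GID2 (0.13) and HOX9 (0.17). SLL1 is a KANADI factor of the lower leaf side, GID2 an F-box protein of gibberellin signalling and HOX9 a factor of the HD-ZIP III family. They ranked 482, 682 and 1998 among the 26270 other genes tested, so many genes lay closer in these few libraries.

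**Figure D4:**
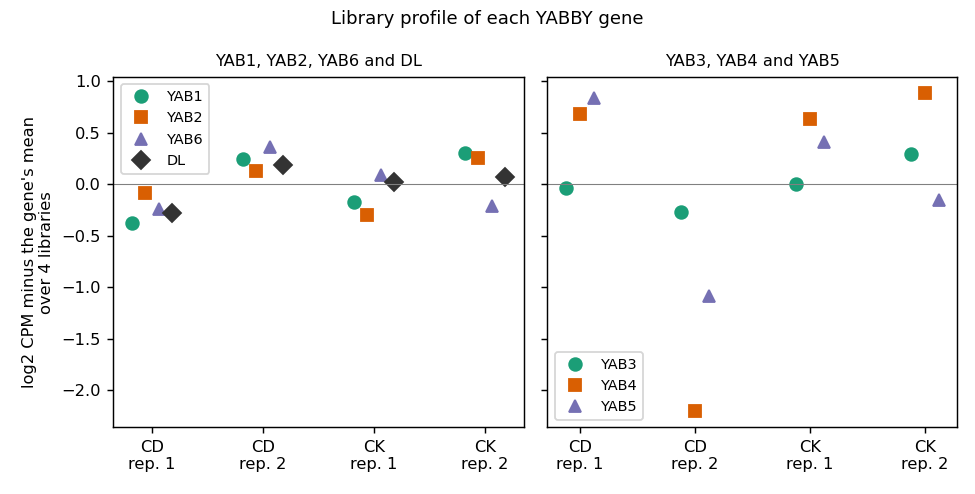
Log2 CPM of each YABBY gene in each library minus its mean over the 4 libraries, for YAB1, YAB2, YAB6 and DL (left) and YAB3, YAB4 and YAB5 (right). On the right CD replicate 2 is lowest for all 3 genes, within counting error for YAB3 and at -2.21 for YAB4. On the left all values lie between -0.38 and 0.36.

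Genes that act with or beside the YABBY factors in leaf primordia were read from the same fit. In the 4 lists of leaf polarity, gibberellin and growth-regulating genes edgeR and DESeq2 called 0 genes, against 0% and 1.91% of all genes, and 2 genes, SHL4 and ARF14, had an unadjusted edgeR p under 0.05, against 8.7% of all genes. HD-ZIP III factors specify the upper leaf side. Of the 5 tested, 3 were above 0 and 2 below, with a median of 0.003, which moved to 0.19 when CD replicate 1 was left out and turned to -0.17 when CD replicate 2 was, and to -0.08 when CK replicate 1 was. HOX9 had a log2 fold change of -0.11 ± 0.25 and HOX33 0.20 ± 0.23. The genes of the lower leaf side and of the small RNA pathway that bounds it had 7 of 8 below 0, against 49% of all genes. Their median was -0.22 (-0.38 to -0.11 with a library left out). With total count scaling 5 of 8 were below 0 (median -0.12), and with either log2 TPM scale 4 of 8 were (median -0.11). Both carbon dot libraries lay below both control libraries for 3 of these 8, against 20.7% of all genes tested. They are ARF14 at -0.43 ± 0.17 and ARF15 at -0.33 ± 0.21, auxin response factors, and SHL4, the argonaute of the pathway, at -1.03 ± 0.36 (adjusted p = 0.574, 0.746 and 0.532 by edgeR). The gibberellin list had 4 of 7 tested genes above 0 and a median of 0.11, with GID2 at 0.17 ± 0.20. The median turned to -0.11 when CD replicate 1 was left out and to -0.009 when CK replicate 1 was. The CD libraries lay wholly below the control for 2 of the 7 and wholly above for 1, against 20.7% and 17.8% of all genes. The 4 WOX entries, none with a matched symbol, summed to 0.0254 to 0.180 CPM and were not tested.

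Growth-regulating factors, which drive cell proliferation in young leaves, had a low value in CD replicate 2, as had YAB4, YAB5 and, within counting error, YAB3. Of the 11 tested, with their coactivator GIF1 among them, CD replicate 2 was lowest for 9, against 25.4% of all genes. Their mean centred log2 CPM was 0.38 in CD replicate 1, -0.90 in CD replicate 2, and 0.32 and 0.20 in the CK replicates. Both carbon dot libraries lay below both control libraries for 4 of the 11, GIF1 among them, against 20.7% of all genes. They lay above both for 0, against 17.8% of all genes. Between the groups 8 of 11 were below 0, against 49% of all genes, with a median of -0.33. Leaving out CD replicate 1 gave a median of -0.69, and leaving out CD replicate 2 turned it to 0.16. GIF1 was at 1.45 and 0.259 CPM in the CD libraries, against 4.65 and 2.14 CPM in the CK libraries, and its log2 fold change was -1.96 ± 0.84 (adjusted p = 0.594 by edgeR). GRF10 had -0.76 ± 0.50 and GRF3, the most abundant, 0.03 ± 0.17. In a bulk leaf sample, fewer young cells and less RNA per cell cannot be told apart.

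Markers of dividing cells did not share this pattern, at a summed 85.9 CPM in both CD replicates and 83.2 and 91.4 CPM in the CK replicates. Their median was -0.08, and it turned to 0.03 with total count scaling, to 0.05 with either log2 TPM scale and to 0.02 without CK replicate 2. Both carbon dot libraries lay below both control libraries for 3 of these 6, against 20.7% of all genes. CYCB2-1 and CYCB2-2, cyclins of mitosis, had -0.18 ± 0.20 and -0.24 ± 0.20, and PCNA, the replication clamp, 0.06 ± 0.16. OSH1 and OSH6, homeobox genes of the KNOX family that mark the meristem, had 0 counts in both carbon dot libraries and 117 and 42, and 33 and 38, counts in the control, at least 50.3-fold and 22.5-fold lower (floor of 3 counts, summed over the group). In the KNOX list 4 of 5 tested entries were below 0, against 49% of all genes, with a median of -2.38. The CD libraries lay wholly below the control for 3, against 20.7% of all genes. Of these, OSH15 had 10 and 14 counts in the CD libraries, against 89 and 54 in the CK libraries. Its log2 fold change was -2.38 ± 0.56 (adjusted p = 0.46 by edgeR). The only entry with both CD libraries above the controls, against 17.8% of all genes, had no matched symbol (log2 fold change 1.63). OSH71 had -0.34 ± 0.37. OSH1 and OSH6 passed the filter through the control libraries alone, so their sign and lack of overlap followed from the filter. Both are among the 4 entries below 0 and the 3 wholly below the control, and the median of -2.38 depends on them. These values therefore give no direction for the list. With the filter of 1 CPM in 2 libraries only 2 KNOX entries remained, 1 of them below 0, with a median of 0.65. The entry above 0, without a matched symbol, passed that filter through the carbon dot libraries alone, so this median gives no direction for the list. PLA1, a cytochrome P450 of the plastochron pathway, had 1 and 0 counts against 208 and 64, and the leaf width gene NAL1 had a log2 fold change of -0.28 ± 0.18. In the same list PLA3 had -0.04 ± 0.16 with overlapping groups, and PLA2, at 0 and 0 counts against 12 and 8, was not tested. All 3 tested genes of that list were below 0, against 49% of all genes. The CD libraries lay wholly below the control for 2, PLA1 and NAL1, against 20.7% of all genes. PLA1 too passed the filter through the control libraries alone, so its sign and lack of overlap followed from the filter. By edgeR the adjusted p of OSH1, OSH6 and PLA1 was 0.46 each over all genes. DESeq2 called all 3, which were named for their low unadjusted p, against 1.91% of all genes. YABBY levels were not split in this way, since YAB3 alone had its carbon dot libraries below both controls. The part of meristem or young tissue in the YABBY values was not tested.

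The leaf label was checked against its markers. RBCS2, a small subunit of Rubisco, was at 2004 and 1213 CPM in the CD libraries, against 3401 and 8081 CPM in the CK libraries, and GS2, the plastid glutamine synthetase, at 790 and 585 CPM against 1299 and 1605 CPM. All 5 leaf markers were below 0, against 49% of all genes. For 2 of the 5, RBCS2 and GS2, both carbon dot libraries lay below both control libraries, against 20.7% of all genes. The groups overlapped for the other 3. DESeq2 called the same 2 lower, against 1.91% of all genes, and both were named for their low unadjusted p. By edgeR neither was called (adjusted p = 0.476 and 0.46). Among the root markers LSI2 had no counts, while LSI1 was at 17.2 to 21.1 CPM and NRAMP5 at 12.6 to 31.7 CPM. The 2 tested root markers were below 0 as well, against 49% of all genes. LSI1 had a log2 fold change of -0.27 ± 0.15 and NRAMP5 -0.65 ± 0.33 (adjusted p = 0.701 and 0.670 by edgeR). Both carbon dot libraries lay below both control libraries for 1 of the 2, against 20.7% of all genes. The 11 floral organ markers summed to 8.96 to 10.7 CPM, with MADS16, a floral B-class gene, at 3.48 to 5.00 CPM, MADS4 at 0.240 to 0.799 CPM and MADS6 at 0.171 to 0.431 CPM. Of the 8 tested, 4 were above 0 and 4 below, and the CD values lay above the control without overlap for 3 (MADS3, MADS4 and MADS6) and below it for 2 (MADS2 and MADS16), against 17.8% and 20.7% of all genes. MADS7 and MADS13 had 1 count each over all 4 libraries. MADS8, also untested, had 0 and 12 counts in the CD libraries, against 0 and 0 in the CK libraries. The part of floral organs in the levels of DL and YAB5, genes known from the flower as well, was not tested.

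**Figure D5:**
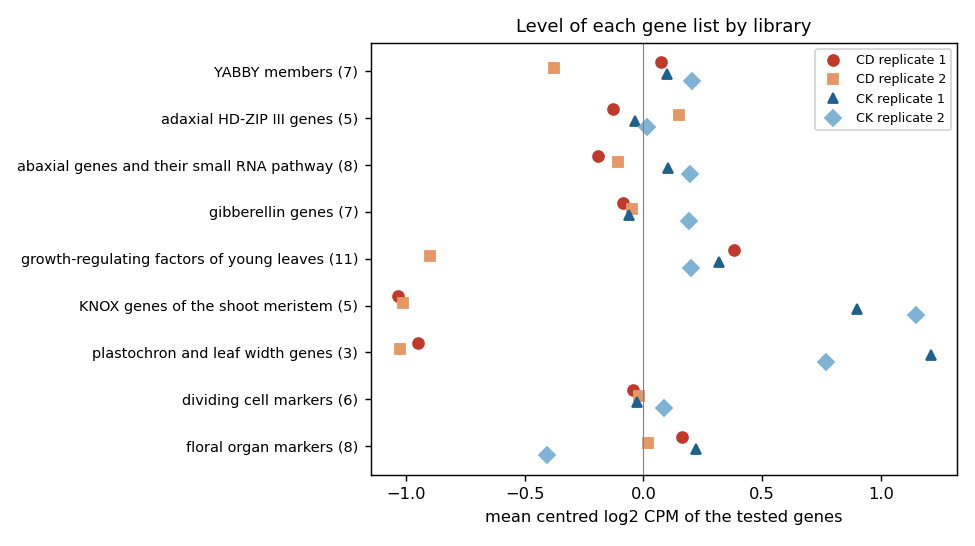
Mean centred log2 CPM of the tested genes of each list in each library, with the number of genes tested in brackets. CD replicate 2 stands apart for the growth-regulating factors at -0.90 and lies at -0.38 for the mean of the 7 YABBY genes, with YAB4 at -2.21 and YAB5 at -1.09 and 4 of the 7 above their own mean. The low CD values of the KNOX and plastochron lists include OSH1, OSH6 and PLA1, which had almost no counts there.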

How the data were processed

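Unnormalized read counts for 4 leaf libraries come from a table deposited by the authors, in featureCounts layout per the file headers. Deposited TPM values followed from those counts and gene lengths within a relative difference of 1.4e-07. The submitters' processing notes list HISAT2 2.0.5, featureCounts 1.6.4 and SAMtools 1.9 among their tools, without roles. For genome build and strand setting, nothing was given in the sources used here. Total counts were 49281927 to 80317398. No 2 libraries agreed within sampling noise (chi-square of 81.5 to 224 per degree of freedom).

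The groups were compared in R 4.3.3 with edgeR 4.0.16, using TMM factors, filterByExpr and its quasi-likelihood test without a replicate block, and p-values were adjusted by Benjamini and Hochberg's method (threshold 0.05). Standard errors come from the fold change and the root of F. Alternatives used DESeq2 1.42.0, limma 3.58.1, other scalings and filters, a replicate block and each library left out. The procedure was also run on simulated counts, drawn without any deviation shared by the genes of a library. The outcome is not reported here, and no result above rests on it.

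The members and lists were chosen with earlier results of these data known. Symbols were matched to RefSeq (assembly ASM3414082v1, names only) for 66 of 79 entries in 13 lists, by symbol, chromosome, position and span. Other entries stayed in list counts unnamed. Named genes were the YABBY genes and, per list, the 2 with the lowest unadjusted p and the 1 with the highest mean CPM, plus the 3 most like YAB6 outside the marker lists. LSI2, OSH15, PLA2, PLA3, MADS1, MADS2, MADS3, MADS7, MADS8 and MADS13 were named after their values were seen. No sequences were used here.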

Additional observations from a re-analysis of the deposited data

How the results depend on the processing

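No YABBY gene was called under any alternative run (lowest adjusted p 0.317, without CD replicate 1). Across the whole table edgeR called 0, with 2286 at an unadjusted p under 0.05, edgeR with no filter called 29 and DESeq2 called 502. The YABBY median log2 fold change of -0.08 ranged from -0.23 to 0.12 with a library left out, was 0.03 with total count scaling, and moved beyond its replicate spread without CD replicate 1 (0.12). The number of genes below 0 was 3 to 6. Of 83 alternative values of single YABBY genes, 14 changed sign. With a library left out YAB1 ranged from -0.47 to 0.16, YAB2 from -0.23 to 0.33, YAB5 from -1.27 to 0.68, YAB6 from -0.19 to 0.42 and DL from -0.33 to 0.14, and, among other genes, HOX9 from -0.49 to 0.19, HOX33 from -0.050 to 0.52, GID2 from -0.030 to 0.35, GRF3 from -0.12 to 0.17 and PCNA from -0.0053 to 0.12. YAB5 was -0.036 with log2(TPM + 1), -0.12 with log2(TPM + 0.1) and -0.23 with the replicate block, and DL was 0.025 with total count scaling, 0.026 with log2(TPM + 1) and 0.028 with log2(TPM + 0.1). The causes were not tested.

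The replicate block called 0 genes and turned no other YABBY gene. Same-numbered libraries' deviations correlated at -0.141 across genes, so the numbers are not known to pair samples. A crossed replicate block, added after seeing the data, also called 0. The filter of 1 CPM in 2 libraries removed YAB4. At 4 to 263 counts per library, YAB3, YAB4 and YAB5 are limited by depth as well as by replicate spread.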
